A study of Catostomus macrocheilus with 21 samples.

Results

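Livers of the largescale sucker, Catostomus macrocheilus, a river fish that feeds on the bottom, were profiled on 1-colour Agilent arrays, with 1 fish per array. Longview fish of intermediate level in probe LSS_UF_10838 are set here against fish of low level from the other sites. The fish were chosen by the measured level of that probe together with their labelled site. The first group holds the Longview fish whose level of that probe lay between -0.6 and 7, which are 6 of the 7 Longview fish. The second group holds the fish of Columbia City and Skamania whose level was under -0.6, which are 4 of 6 Columbia City fish and 3 of 8 Skamania fish. Together they are 13 of the 21 fish of the series. A level is the log2 processed signal of a probe minus the 75th percentile of log2 processed signals on the same array, so a probe at that percentile has a level of 0, and differences of levels are log2 ratios of signal. Per the labels, every fish was a reproductive adult taken from the Columbia River, and the study asked how liver expression followed contaminant exposure. No treatment was given, and neither sex nor contaminant load is in the labels used here, so none of these could be set against a level.

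The liver of an egg-laying fish makes most plasma proteins and handles fat, iron and foreign chemicals. In maturing females it also makes yolk and eggshell precursors under the control of estrogen, and these genes are nearly silent in males and in fish out of season. Because sex and season act on these genes so strongly, they can vary more among wild adults than most liver genes do. Probes carry the sequence names of a largescale sucker assembly in the files, with no gene names. The tissue and the 2 groups could therefore not be checked against marker genes, no pathway could be described, and probes are named by their own identifiers.

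All fish of the first group came from Longview and none of the second did. Site and level are thus mixed, and within these 13 fish they cannot be told apart. Since a measured value chose the fish, every difference between the 2 groups is a description with no test. Tests are given only where the labelled site alone forms the groups.

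The 6 intermediate Longview fish had LSS_UF_10838 levels of 0.16 (replicate 6), 0.80 (replicate 5), 4.10 (replicate 7), 4.21 (replicate 3), 4.57 (replicate 1) and 6.54 (replicate 4). The 7 low-level fish elsewhere ran from -5.37 through a median of -3.37 to -1.32. The nearest fish on either side of the lower limit were thus at -1.32 and 0.16, and a limit moved by 0.5 either way gave the same groups. At the upper limit the nearest were Longview 4 at 6.54 and Columbia City 1 at 7.39. Longview 2, at 7.56, was the only Longview fish above it, and the other 7 high-level fish were 2 from Columbia City and 5 from Skamania, at 7.39 to 8.37. No fish outside Longview had an intermediate level and no Longview fish a low one, as the plot of levels by site shows. The intermediate fish were not one cluster on this probe: 2 of them lay under 1 and 4 of them above 4.

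**Figure D1:**
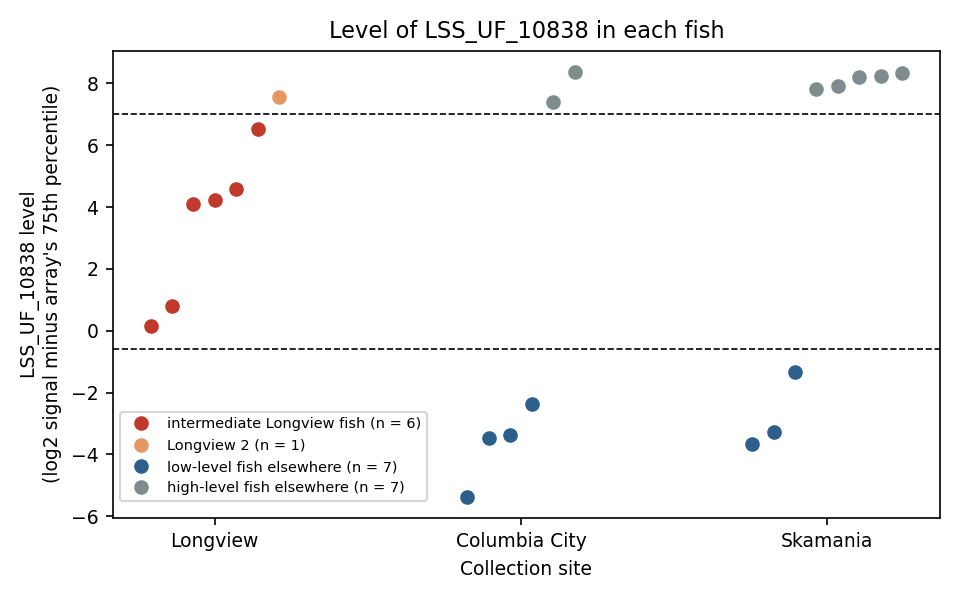
Level of LSS_UF_10838 (vertical axis, log2 signal minus the 75th percentile of the array) in each of 21 fish by collection site, 1 point per fish, with dashed lines at -0.6 and 7. The 6 intermediate Longview fish lie between 0.16 and 6.54, where no fish of the other sites lies.

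The arrays of the 2 groups were close in overall signal but not in every control. The first group had 9423 to 11801 of 14758 probes well above background and the second 8800 to 10690. The 75th percentile of log2 signal ran from 8.27 to 9.57 in the first group and from 8.47 to 9.98 in the second. Each of the 3 slides held fish of both groups, with 2 and 2, 2 and 3, and 2 and 2 fish of the first and second group. Before scaling, control probe ETG10_234183 read 2.77, 3.38 and 4.08 (lowest, median and highest log2 signal) in the first group against 1.73, 2.28 and 2.72 in the second. Control probe E1A_r60_a104 read 4.84, 5.01 and 5.39 against 3.61, 3.91 and 4.11. For both controls every intermediate Longview fish lay above every low-level fish, whereas the ranges met for E1A_r60_a135 (9.07 to 10.13 and 9.18 to 9.73) and for the negative control (1.76 to 2.37 and 1.51 to 2.77). These controls moved with the grouping, and their part in the differences between the 2 groups was not tested.

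For most bright probes the means of the 2 groups lay close together. A probe was compared if it was well above background on all 13 arrays, and 7765 probes were. The median difference of the group means, first minus second, was -0.005 on the log2 scale, a value that the scaling of each array holds near 0, and the 2.5 and 97.5 percentiles were -0.80 and 0.82. For 83.0% of probes the means differed by less than 0.5. A difference of at least 1 was found for 114 probes higher in the intermediate Longview fish, or 1.47%, and for 99 lower, or 1.27%. For most of these probes the ranges of the groups met. The ranges were apart for 26 probes higher in the Longview fish (0.335% of those compared) and for 1 lower (0.0129%), or 0.348% in all. Only 4 of the 26 also differed by at least 1 (0.0515%), and 0 did so in the lower direction. With each fish left out in turn the 4 became 3 to 17, among them 17 without Longview 6, 13 without Longview 5, 9 without Columbia City 4, 8 without Columbia City 3 and 7 without Skamania 3. Ranges come apart more easily with 1 fish fewer, so nothing is read from these rises. LSS_UF_10838 itself is not among the 7765, because 1 of the 7 low-level arrays did not measure it well above background.

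**Figure D2:**
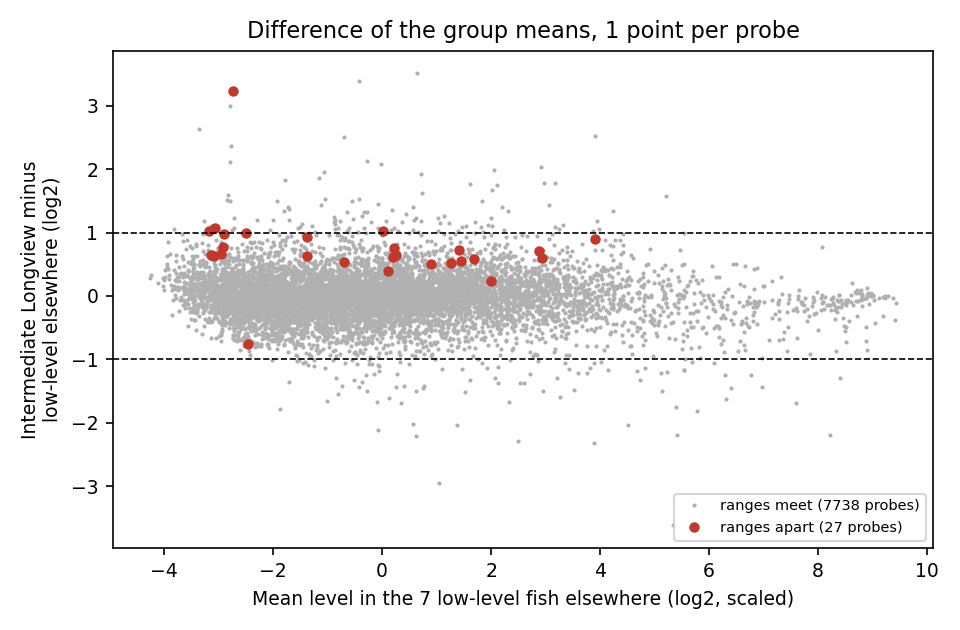
Difference of the group means (vertical axis, log2, intermediate Longview minus low-level elsewhere) against the mean level in the 7 low-level fish (horizontal axis, log2 signal minus the 75th percentile), 1 point per probe for 7765 probes. The 27 probes whose ranges were apart are filled red, 26 above 0 and 1 below, and dashed lines mark differences of 1 and -1.

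LSS_UF_16828 had the largest difference of the probes with separate ranges. Its level in the intermediate Longview fish was -0.65 (replicate 6), -1.54 (replicate 5), 0.19 (replicate 7), -0.49 (replicate 3), 1.16 (replicate 1) and 4.38 (replicate 4). In the low-level fish elsewhere it was -3.33, -2.93 and -1.95 (lowest, median and highest). All 6 Longview fish were thus above all 7 others, but Longview 4 stood 3.22 above the next of its group. The mean level was 0.51 ± 2.10 (SD, n = 6) against -2.73 ± 0.59 (SD, n = 7), a difference of 3.23, or 9.41-fold in signal. The difference was 2.46 to 3.64 when each fish was left out in turn, and 2.94, 2.35 and 4.49 within slides 1, 2 and 3. The high-level fish of Columbia City and Skamania stood higher still, at 4.21, 4.68 and 6.18, and Longview 2 at 5.48, so this probe rose in the same order of classes as LSS_UF_10838 did.

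LSS_UF_11204 was low in all fish and differed by 1.07, a 2.10-fold difference in signal. The intermediate Longview fish had levels of -2.51 (replicate 6), -2.52 (replicate 5), -2.24 (replicate 7), -2.15 (replicate 3), -0.56 (replicate 1) and -2.02 (replicate 4), against -3.32, -3.16 and -2.54 in the low-level fish. The gap between the groups was small, from -2.54 to -2.52, and Longview 1 stood far above the rest of its group. Without Longview 1 the difference was 0.78, the lowest of the values with 1 fish left out. The high-level fish elsewhere had a mean of -2.01 ± 0.48 (SD, n = 7) and Longview 2 was at -2.12, so neither was set apart from the intermediate fish.

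LSS_UF_19298 had a higher mean at Longview without following the level of LSS_UF_10838. Its levels were -1.42 (replicate 6), -2.58 (replicate 5), -2.47 (replicate 7), -2.17 (replicate 3), -2.29 (replicate 1) and -2.04 (replicate 4), against -3.51, -3.33 and -2.58 in the low-level fish. The lowest Longview fish and the highest low-level fish were almost level. All 13 arrays of the groups and 6 of the 7 high-level arrays elsewhere measured this probe well above background. The difference was 1.02 (means -2.16 ± 0.41 and -3.18 ± 0.33, SD, n = 6 and 7). The high-level fish elsewhere had a mean of -3.26 ± 0.51 (SD, n = 7), which is 0.08 below the low-level fish, and Longview 2 was at -2.47. Those high-level fish ran from -3.74 to -2.54, and the highest of them, Columbia City 1, was above Longview 5.

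LSS_UF_22812, a probe of middling level, had levels of 0.75 (replicate 6), 0.82 (replicate 5), 1.10 (replicate 7), 1.30 (replicate 3), 1.05 (replicate 1) and 1.22 (replicate 4) in the intermediate Longview fish. The low-level fish ran from -0.81 through -0.03 to 0.66. The Longview fish were close together here, with an SD of 0.22, while the low-level fish spread with an SD of 0.53. The difference was 1.02, and the high-level fish elsewhere reached the same level (0.63, 0.96 and 1.95), as did Longview 2 at 1.96. For these fish, then, LSS_UF_22812 set the low-level fish outside Longview below most of the rest.

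The other 22 higher probes with separate ranges differed by less than 1, the smallest being LSS_UF_15089 with 0.23. Over the 26 the median difference was 0.66, or 1.58-fold. Their median signal over the fish of both groups was 682 units, against 441 units over all probes compared. The single lower probe was LSS_UF_19355, with levels of -3.81, -3.16 and -2.97 in the Longview fish and -2.93, -2.52 and -1.73 in the low-level fish, a difference of -0.76. Longview 2 was lower still, at -4.54. Sequence names of LSS_UF_11283 and LSS_UF_11284 place both in 1 assembly group. LSS_UF_11283 was among the 26 with a difference of 0.71, whereas LSS_UF_11284 differed by -0.58 with ranges that met, at 0.79 ± 1.40 (SD, n = 6) and 1.37 ± 0.38 (SD, n = 7). Likewise LSS_UF_24642, of the same assembly group as LSS_UF_15089, differed by 0.08 with ranges that met.

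**Figure D3:**
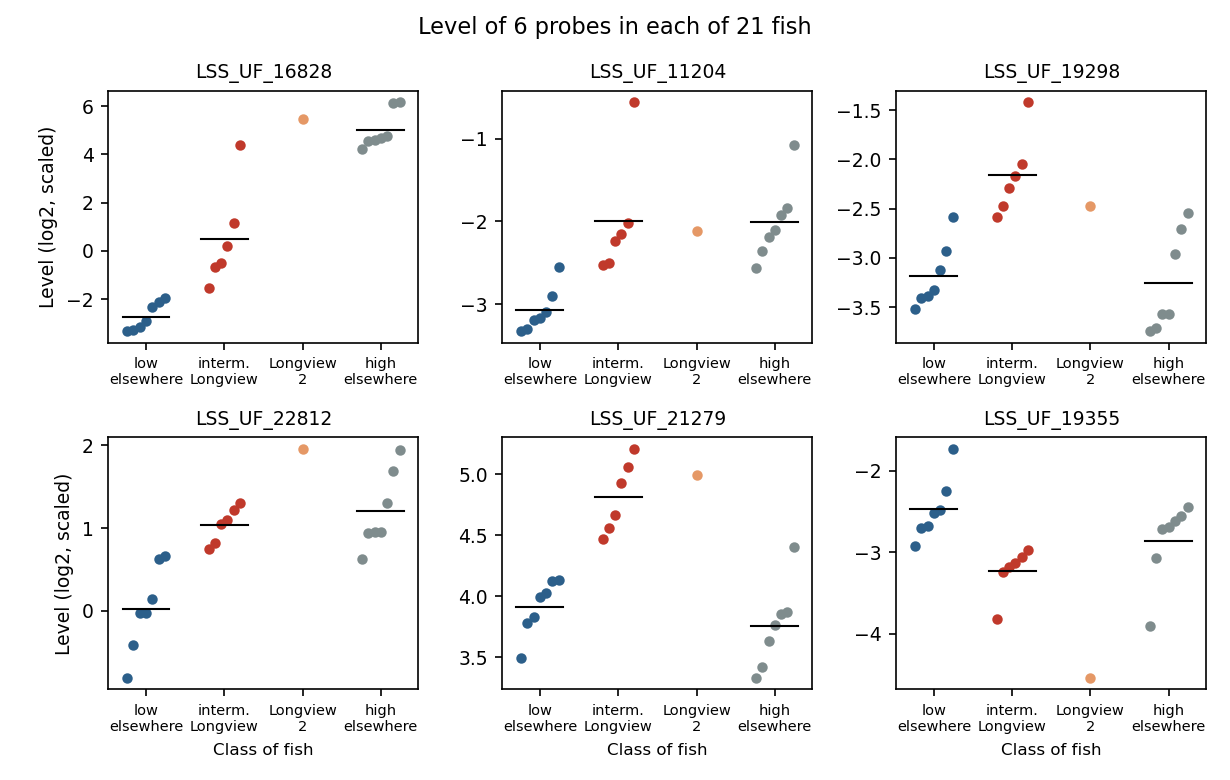
Level (vertical axes, log2 signal minus the 75th percentile) of 6 probes by class of fish, 1 point per fish, with the class mean as a bar for classes of over 1 fish: 7 low-level fish elsewhere, 6 intermediate Longview fish, Longview 2 and 7 high-level fish elsewhere. LSS_UF_16828 rises from the low-level to the intermediate fish and again to the high-level fish and Longview 2, LSS_UF_22812 is lowest in the low-level fish, and LSS_UF_21279 is highest in the Longview fish of either class.

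The 8 fish of neither group are set beside the 26 higher probes as a description, which does not separate site from level. Of the 26 higher probes, 3 had all 7 high-level fish elsewhere above all 7 low-level fish, as a probe that follows LSS_UF_10838 would. The high-level mean elsewhere was above the low-level mean for 20 of the 26, against 41.5% of all probes compared. These high-minus-low values share the low-level fish with the comparison that chose the 26. Longview 2 lay above the high-level mean elsewhere for 21 of the 26, against 53.4% of all probes, and above every high-level fish elsewhere for 15. It lay above all low-level fish for 20. For the counts of 3, 15 and 20 no share over all probes was taken, so nothing is read from them. For 5 of the 26 every intermediate fish was above every high-level fish elsewhere too: LSS_UF_21279, LSS_UF_21122, LSS_UF_12978, LSS_UF_14053 and LSS_UF_15089. No share over all probes was taken for this count of 5 either. In 3 of these 5, LSS_UF_21279, LSS_UF_21122 and LSS_UF_14053, all 7 Longview fish were above all 14 others (0.0386% of the probes compared), and for 0 probes were all 7 below.

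The fish of each group also varied among themselves. In the intermediate group 69 of the 7765 probes had an SD above 2, against 41 in the low-level group, and 20 had it in both. Of the 69, 6 belonged to the 81 probes, described further on, that were higher in high-level than in low-level fish elsewhere. All 81 were among the 7765 probes compared. They were chosen for a mean difference of at least 2 between fish, which favours probes of wide spread. Nothing is therefore read from the 6. Longview 6 departed most from its group, being at least 2 above the median of the other 5 fish for 1.93% of probes and at least 2 below it for 1.64%. Longview 4 did so for 1.34% upward and 0.966% downward, and Longview 1, 3, 5 and 7 for 0.541% to 0.837% upward and 0.631% to 1.16% downward. In the low-level group the shares over fish were 0.554% to 0.876% upward and 0.489% to 1.35% downward. The median SD of a probe was nonetheless close, at 0.513 in the first group and 0.486 in the second.

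Probe LSS_UF_24050, known from earlier results of these data, divided the intermediate fish. Its level was -5.52 (replicate 7), -4.91 (replicate 4), -4.69 (replicate 3) and -3.47 (replicate 6) in 4 intermediate Longview fish but 5.97 (replicate 1) and 7.62 (replicate 5) in the others. In the low-level fish it was 1.90, 6.55 and 7.62. The split cut across the order of LSS_UF_10838, since the pair of high fish held neither the lowest nor the highest levels of that probe. The difference of the means was -7.09, with ranges that met, and it is not exact, because 5 of the 6 intermediate arrays measured this probe well above background and Longview 4 did not. Longview 2 was at 3.56 and the high-level fish elsewhere were at 5.33 to 7.23, so levels under 0 were found in Longview fish alone among the 21.

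LSS_UF_11822, the other probe known from earlier results, was high in most low-level fish and low in the high-level fish. It read 8.19 (replicate 6), 0.92 (replicate 5), 5.37 (replicate 7), 2.50 (replicate 3), 3.78 (replicate 1) and 3.04 (replicate 4) in the intermediate Longview fish. The low-level fish ran from -1.96 through 7.29 to 8.87. Both groups were wide and their ranges met, with a difference of -1.82 that stayed between -3.11 and -1.21 when each fish was left out. The high-level fish elsewhere were at -2.31 to 0.42 and Longview 2 at -2.90, so all 6 intermediate fish were above the fish of high level.

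Where the intermediate fish lie between low and high level over other probes was read from probes chosen by ranges and differences without any Longview fish. The Longview arrays entered that choice only through the filter on signal above background. Of 6999 probes well above background on all 21 arrays, 81 (1.16%) had all 7 high-level fish of Columbia City and Skamania above all 7 low-level fish and a mean difference of at least 2. For each probe a position of 0 was given to the low-level mean and of 1 to the high-level mean. Over the 81 probes the median position was 0.161 in Longview 6, 0.0668 in Longview 5, 0.0633 in Longview 7, 0.103 in Longview 3 and 0.155 in Longview 1. It was 0.706 in Longview 4, and 1.08 in Longview 2. The position of the same fish on LSS_UF_10838 itself was 0.302, 0.359, 0.651, 0.661, 0.693, 0.867 and 0.958 in that order. These last values chose the fish as intermediate, so they stand here as a description and nothing is read from their distance to the medians. Over the 81 probes, 5 of the 6 intermediate fish had a median position near that of the low-level fish, and Longview 4 one nearer to the high-level fish.

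The same was seen fish by fish. A low-level fish left out of the ranges and means that chose the probes had a median position between -0.125 and 0.131. A left-out high-level fish had one between 0.800 and 1.14. Longview 6 and Longview 1 lay just above the range of left-out low-level fish, Longview 3, 5 and 7 within it, and Longview 4 below that of left-out high-level fish. Of the 81 probes, Longview 6 was within or below the range of the low-level fish for 55, Longview 5 for 67, Longview 7 for 57, Longview 3 for 57 and Longview 1 for 53. Longview 4 was so for 17, lay between the ranges for 33 and reached the range of the high-level fish for 31. Longview 2 reached that range for 77. With a minimum difference of 3 (43 probes) the 5 nearer fish were at 0.0455 to 0.193, and with a minimum of 4 (21 probes) at 0.0991 to 0.254, against 0.748 and 0.785 for Longview 4.

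**Figure D4:**
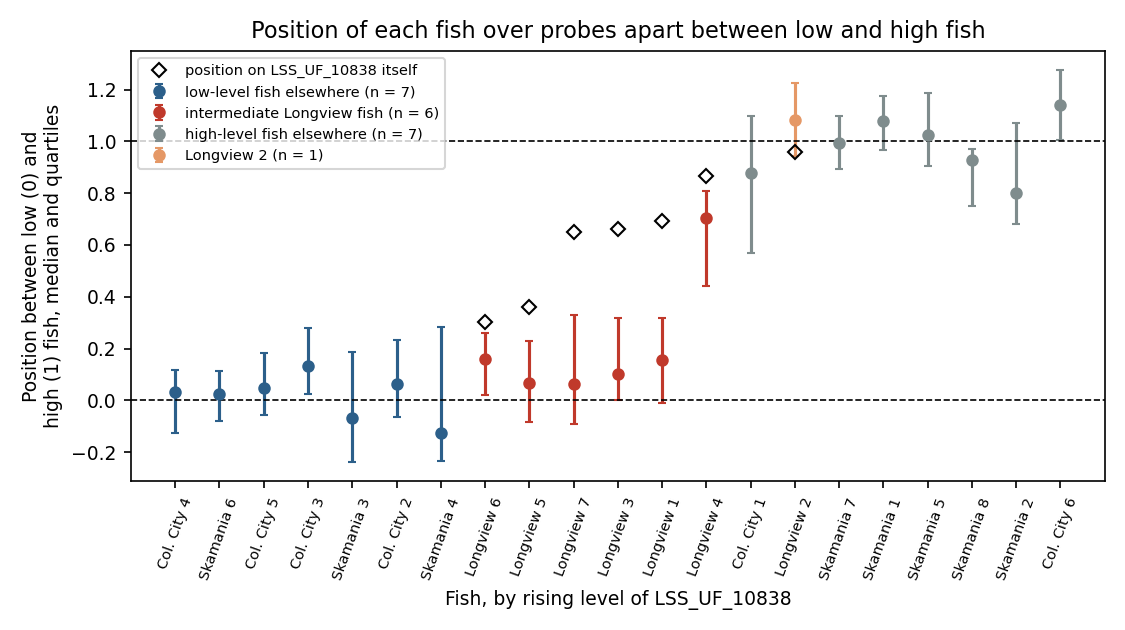
Median position (points, with lower and upper quartile as bars) of each fish between the low-level mean (0) and the high-level mean (1), in rising order of LSS_UF_10838. It was taken over 81 probes for Longview fish. For the others it was taken over 77 to 100 probes chosen by ranges and differences without the fish. Open diamonds give the position on LSS_UF_10838 itself. Longview 6, 5, 7, 3 and 1 lie at 0.0633 to 0.161, Longview 4 at 0.706 and Longview 2 at 1.08.

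Single probes of the 81 differed in how far the intermediate fish had left the low range, and the following were picked after their values were seen. LSS_UF_16828 was the only one with all 6 intermediate fish above the low-level range. For 8 probes at least 5 of the 6 were above it, for 23 only 1 was, and for 7 none was. In 19 of those 23 the single fish was Longview 4. LSS_UF_11171 is a probe with a wide gap, at -3.79 to -1.67 in the low-level fish and 4.82 to 6.21 in the high-level fish. It read -1.48 (replicate 6), -1.76 (replicate 5), -0.08 (replicate 7), -0.14 (replicate 3), 0.63 (replicate 1) and 4.06 (replicate 4). LSS_UF_22652, at -0.98 to 0.46 and 5.41 to 7.14 in the low-level and high-level fish, read 1.03, -0.01, 1.61, 1.31, 1.99 and 5.13 in the same order of replicates. On both probes Longview 4 stood at least 3 above the other intermediate fish, and Longview 5 was the lowest of them and inside the low-level range.

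A few probes stood near the middle or beyond in most intermediate fish. The median position over the 6 fish was above 0.5 for 4 of the 81 probes, LSS_UF_12219, LSS_UF_10418, LSS_UF_17949 and LSS_UF_18699, and below 0.25 for 56. LSS_UF_12219 read 2.94 (replicate 6), 3.76 (replicate 5), 3.36 (replicate 7), 4.21 (replicate 3), 3.39 (replicate 1) and 3.95 (replicate 4), against 0.80 to 3.34 in the low-level fish and 3.47 to 4.93 in the high-level fish. The low and high ranges of this probe were only 0.13 apart. LSS_UF_18699 had a low-level range from -3.01 to 3.82 and a high-level range from 7.14 to 8.12, and the intermediate fish read 1.66 (replicate 5) to 6.56 (replicate 4). Where the low-level fish were themselves spread this widely, a position near the middle still left most intermediate fish inside or close to their range.

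The reverse set, lower in high-level than in low-level fish elsewhere, held 15 of 6999 probes (0.214%). Longview 6 was in or beyond the low-level range for all 15 of these, Longview 1 for 13, Longview 5 for 12, Longview 3 for 11, Longview 4 for 9 and Longview 7 for 7. Longview 2 was so for 1 and reached the high-level range for 11. LSS_UF_11587 of this set read 8.09 (replicate 6), 6.27 (replicate 5), 5.51 (replicate 7), 7.01 (replicate 3), 5.94 (replicate 1) and 5.12 (replicate 4). It ran from 5.61 to 7.40 in the low-level fish and from 2.66 to 4.76 in the high-level fish. In both of these sets, then, most intermediate Longview fish were in or beyond the low-level range for most probes. Neither set holds probes that some low-level arrays did not measure well above background. Of such probes, 2 were picked after their values were seen. LSS_UF_14073 read -2.50 to 3.14 in the intermediate fish, above all low-level fish (at most -3.84) and below the high-level fish (4.65 to 5.88). For LSS_UF_11366 the ranges met, at -4.36 to 3.14 in the intermediate fish and -7.54 to 0.20 in the low-level fish.

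Probes seen in one group alone ran in one direction. Of all 14758 probes, 36 (0.244%) were well above background on all 6 intermediate Longview arrays and on none of the 7 low-level arrays, and 0 were so in reverse. All 36 were dim, with signals of 28.2 to 67.7 units and a median of 41.0. For these a fold is a lower bound, the mean of the Longview fish against the mean of a ceiling for the low-level fish. On each low-level array the ceiling was the lowest signal that passed as well above background, or the probe's own signal where that was higher. The bounds ran from at least 1.62-fold to at least 3.86-fold with a median of at least 2.30-fold, and the largest was that of LSS_UF_19139. Its level was -3.33, -3.06 and -2.30 in the intermediate fish and at most -5.25 in the low-level fish.

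Longview 2 and Columbia City 6 measured all 36 of these probes well above background as well. Of the 36, 24 were well above background in none of the other 6 high-level fish elsewhere, and each of those fish measured between 2 and 6. LSS_UF_19139 was at -2.62 in Longview 2, at -2.27 in Columbia City 6 and at most -5.15 in the other 6. Columbia City 6 is also the fish outside Longview with the highest ETG10_234183 (4.01, against 1.73 to 2.72 in the other 13) and the highest E1A_r60_a104 (5.34, against 3.61 to 4.78). The 8 fish with these dim probes were thus the 8 fish with the highest values of both controls, and the part of the controls in these 36 was not tested. Of the 36 probes 1, LSS_UF_18756, was also among the 12 (0.0813% of all probes) that all 7 high-level fish elsewhere and none of the low-level fish measured, and 10 (0.0678%) were so in reverse.

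**Figure D5:**
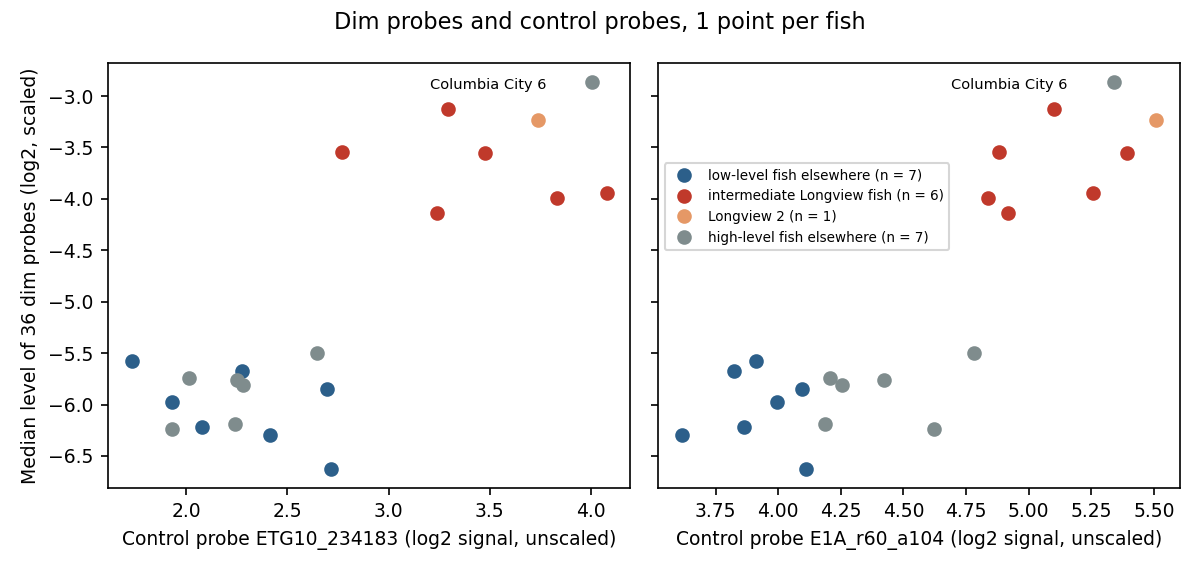
Median level of the 36 dim probes (vertical axis, log2 signal minus the 75th percentile) against the log2 signal before scaling of control probe ETG10_234183 (left) and E1A_r60_a104 (right), 1 point per fish for 21 fish. The 6 intermediate Longview fish, Longview 2 and Columbia City 6 lie at -4.14 to -2.87 and the other 13 fish at -6.62 to -5.50.

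Grouping by the labelled site alone allows a test over all 21 fish. Longview was set against the mean of Columbia City and Skamania with limma, once with the LSS_UF_10838 level of each fish as a linear term and once without. No fish outside Longview had a level between -1.32 and 7.39, where 6 of the 7 Longview fish lay. Across that range the values set against Longview rested on a straight line and not on measured fish of equal level. Over 7062 probes well above background on all arrays, 1 probe was called higher at Longview in either fit (0.0142%), at a limma adjusted p under 0.05, and 0 were called lower. The probe was LSS_UF_21279 in both. At an unadjusted limma p under 0.05 there were 1053 probes with the level in the fit and 658 without it. With no difference between sites a share of 0.05 of the 7062 would be expected to pass, and both counts were above that. Probes can vary together within a fish, so the excess is not read as a number of probes that differ. Of the 27 probes with separate ranges 24 could be tested in this way, and LSS_UF_21279 was the only one called. With 1 fish left out, the count with the level term was 142 without Longview 2, 61 without Longview 6, 31 without Longview 4, and 8 or fewer without any other fish.

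LSS_UF_21279 is a bright probe that did not follow LSS_UF_10838. Its level was 4.47, 4.93 and 5.21 (lowest, median and highest) in the 7 Longview fish, 3.77, 4.07 and 4.40 in the 6 Columbia City fish, and 3.33, 3.73 and 3.99 in the 8 Skamania fish. Every Longview fish was above every other fish, by 0.07 at the nearest. Among the intermediate fish it read 4.93 (replicate 6), 4.56 (replicate 5), 4.67 (replicate 7), 5.06 (replicate 3), 5.21 (replicate 1) and 4.47 (replicate 4), in no order of the LSS_UF_10838 level, and Longview 2 was at 4.99. With the LSS_UF_10838 level as a linear term Longview was higher by 0.99 (SE 0.145, adjusted p = 0.00664 by limma), and by 0.98 without that term (SE 0.141, adjusted p = 0.00440 by limma). It was called in all 21 fits that left out 1 fish, both ways, with a highest limma adjusted p of 0.0324. With the level of LSS_UF_10838 entered as 3 classes in place of a linear term, the limma adjusted p was 0.170. That fit by class set Longview 2 alone against the high-level fish elsewhere within its class, and its fitted difference was 1.16. With ETG10_234183 as a term, an alternative added after the data were seen, the fitted difference was 0.91 with or without the level term. Its limma adjusted p was 0.428 with the level term, where the SE was 0.212, and 0.641 without it.

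The next probes missed the threshold in these fits and passed it in some alternatives. LSS_UF_18675 was lower at Longview by a fitted 1.61 (limma adjusted p = 0.0549, with the level term), and LSS_UF_21122 was higher by 0.97 (limma adjusted p = 0.0652). With the level term the limma adjusted p of LSS_UF_18675 was 0.0400 with quantile normalization, 0.0333 with median centring and 0.0482 with slide as a block, but 0.147 after normexp and 0.587 with ETG10_234183 as a term. That of LSS_UF_21122 was 0.0121 without Longview 2, where the fitted difference was 0.71, and 1.61e-05 with the level as 3 classes, where it was 2.78 and set Longview 2 alone against the high-level fish elsewhere within its class. LSS_UF_21122 read 1.87, 2.14 and 4.21 in the Longview fish, 1.10, 1.32 and 1.58 at Columbia City and 1.24, 1.52 and 1.73 at Skamania. Its highest value was that of Longview 2, and its lowest Longview fish was only 0.14 above the highest fish elsewhere.

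Counts of calls were larger once dim probes entered the fit, but a probe could enter through the 7 Longview arrays alone and then had to be higher there, so these counts support no direction. Where 6 of 21 arrays well above background were enough (11034 probes), limma called 283 higher (2.56%) and 94 lower (0.852%) at Longview with the level term, and 197 higher (1.79%) and 9 lower (0.0816%) without it. Of the 197, 12 were well above background on all 21 arrays and 185 were not. Columbia City 6 was above all other 13 fish outside Longview for 166 of the 197, or 84.3%, against 10.8% of all probes tested. Of the 11034 tested, 7062 were well above background on all 21 arrays, so the 2 shares are over unlike probes. Nothing is read from them. Among the 26 bright probes Columbia City 6 was above those 13 fish for 7, against 6.54% of all 7765. The low-level fish that helped to choose the 26 are among the 13, so nothing is read from this count either.

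The fish of neither group gave no test of the comparison, since Longview 2 is the only Longview fish among them. Of the 4 probes counted as higher, 3 were higher in Longview 2 than in the mean of the 7 high-level fish elsewhere. The share over all probes compared was 53.4%, and nothing is read from a count over 4 probes. The 3 were LSS_UF_16828 by 0.47, LSS_UF_19298 by 0.79 and LSS_UF_22812 by 0.76. LSS_UF_11204 was lower by 0.11. With 1 fish on one side no spread can be set against these differences.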

How the data were processed

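Liver RNA of 21 wild fish was read on 1 array each. Per the submitters' processing notes Agilent Feature Extraction 9.1 was used, while per the file headers it was version 10.1.1.1; the files do not settle which. The scanner files the authors deposited give the intensity of each spot on a linear scale, and the processed signal was used; a second deposited table gives log2 values of the same arrays. The background step behind the processed signal is not stated in these sources. The number of arrays limits the precision.

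Spots of a probe were averaged as log2 processed signals, without 555 outlier-flagged spots of 319368, and then the array's 75th percentile over non-control probes was subtracted. A further 50 probes were left out of the comparison of the 2 groups because of flagged spots. Fish were classed by LSS_UF_10838 with limits of -0.6 and 7. A probe counts as apart when the ranges of the groups do not overlap, and as counted when the means also differ by at least 1. No test was made between groups formed by a measured value. Labelled sites entered limma 3.58.1 fits (R 4.3.3) over 7062 probes well above background on 21 arrays, two-sided, with Benjamini-Hochberg adjustment over all of them. On simulated data of 6999 probes the fit with the level term called 26% of probes changed 1.5-fold, 60% at 2-fold, 96% at 4-fold and 100% at 8-fold, and the fit without it 16%, 52%, 90% and 100%. In each simulation 50 probes were changed at each size, all at once, and no effect of the LSS_UF_10838 level was put in. The Benjamini-Hochberg adjustment is less strict where many probes are called, and the real fits called 1. The simulated spread was also independent between probes, with no fish departing from its group over many probes. These shares therefore need not hold for the real arrays, and a lone changed probe would be called less often. Unchanged probes were called 9 times with the level term and 6 times without it. Figures were drawn with matplotlib 3.10.9.

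The members, the limits and the probes to be named were chosen with earlier results of these data known. The rule named LSS_UF_10838, the counted probes (at most 12 in each direction), the probes called by site with the smallest p (at most 6 in each direction), LSS_UF_11822 and LSS_UF_24050; all other probes named were chosen after their values were seen. Gene names and probe sequences were not used here. Alternatives were quantile normalization, median centring, normexp with an offset of 50 on median signals (planned on mean signals, which were not used here), the authors' deposited log2 values, other filters on dim probes, other limits of size and level, each other site alone, slide, a replicate block, the level as a class, ETG10_234183 as a term (added), and leaving out each fish.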

Additional observations from a re-analysis of the deposited data

Results flagged for a closer look

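In groups of 6 or 7 fish, 3 of 30 sets of values examined had 1 fish whose distance from its nearest neighbour was large for the range of its group by Dixon's criterion, where chance gives about 1 in 20. LSS_UF_11204 was at -0.56 in Longview 1, against -2.52 to -2.02 in the other 5 intermediate Longview fish. LSS_UF_24050 was at 1.90 in Skamania 6, against 6.17 to 7.62 in the other 6 low-level fish. Control probe ETG10_234183 was at 4.01 in Columbia City 6, against 1.93 to 2.65 in the other 6 high-level fish outside Longview.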

How the results depend on the processing

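The 4 counted higher probes were higher within each of the 3 slides, as separate ranges require, so nothing is read from that. The count of higher probes, 4, was also 4 with level limits shifted by 0.5, which gave the same groups. It was 3 with quantile normalization, median centring, the deposited log2 values or a filter over all 21 arrays. It was 1 after normexp, 277 with no filter on dim probes, 24 at a minimum of 0.5, 26 at any size, and 22 and 62 against the low-level fish of Columbia City or Skamania alone, with 3 to 17 when leaving out each fish. The count of lower probes, 0, was 1 with quantile normalization, the deposited values, a minimum of 0.5 or any size, 3 with no filter and 18 against either site alone. Leaving out each fish it was 0 to 7: 7 without Longview 5, 5 without Skamania 4, 3 without Longview 4, Longview 6 or Skamania 3, 2 without Longview 7, and 1 without Longview 1, Columbia City 2 or Columbia City 4. The site count with the level term, 1, was 377 with probes on at least 6 arrays, 496 with no filter, 7 with quantile normalization or the deposited values, 3 with median centring, 12 with slide as a block and 18 with the level as a class. It was 1 to 142 leaving out each fish: 142, 61, 31 and 7 without Longview 2, 6, 4 and 5, then 2, 5, 7 and 5 without Columbia City 1, 2, 5 and 6, and 7, 4 and 8 without Skamania 2, 3 and 4. Without the level term it was 206 and 320 with those filters, and 1 to 3 leaving out each fish, with 3 without Longview 6 or Skamania 4 and 2 without Longview 1 or Columbia City 5. Both site counts were 0 with ETG10_234183 as a term (526 and 421 probes at an unadjusted limma p under 0.05) and 0 with a replicate block (851 and 526). Under that block LSS_UF_21279 had a limma adjusted p of 0.109 with the level term and 0.184 without, and with the level as a class 0.170. Over 19 pairs of same-numbered fish of different sites, r between their deviations ran from -0.53 through a median of -0.195 to 0.48, with 7 over 0.1. Pairs of unlike number were not set beside these, so the check does not settle whether same-numbered fish deviate together. The labels used here state no pairing, and the numbers are not read as pairs. No test was possible in the fish of neither group, because Longview 2 was the only Longview fish among them. There 3 of the 4 counted probes were higher in Longview 2, and 3 to 4 leaving out each fish. The share over all probes compared was 53.4%, and nothing is read from a count over 4 probes. Ranges come apart more easily with fewer fish. Nothing is therefore read from larger counts of higher or lower probes against 1 site alone or with 1 fish left out. The causes of the other shifts were not tested. Between the 2 groups, quantile normalization, normexp and leaving out each fish turned the sign of no probe named by the rule. For probes with separate ranges, leaving out a fish could not turn it. LSS_UF_11822, at -1.82 over all slides, was however at 0.72 within slide 2. Its mean of 3.97 in the intermediate fish was also above that of the low-level Skamania fish alone, at 2.66. Site differences that were not called did turn: with the level term and then the level as a class, LSS_UF_16828 from -1.15 to 0.31, LSS_UF_11204 from 0.39 to -0.07 and LSS_UF_11822 from 1.56 to -2.17. Without that term LSS_UF_16828, at 0.19, was -0.05 after normexp and -0.80 with ETG10_234183, and both it and LSS_UF_11822 (0.42, and -0.45 without Longview 6) turned when some single fish were left out. Dim probes are limited by signal over background, and 185 of the 197 higher calls without the level term under the 6-array filter were not well above background on every array.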
